A study of Mus musculus with 16 samples.

Results

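The receptor tyrosine kinase gene Ret, the co-receptor genes Gfra1, Gfra2 and Gfra3, and the ligand genes Gdnf, Nrtn and Artn were followed in the muscle layer of the mouse colon in Hirschsprung disease (HSCR). They were taken by gene symbol, 7 of the 56748 genes counted, over all 4 groups of the study. Bulk RNA-seq had been performed on 16 libraries of the longitudinal muscle with its attached myenteric plexus (LMMP), with 4 libraries from each of WT (Ednrb+/+) proximal colon, HSCR (Ednrb-/-) proximal colon, WT distal colon and HSCR distal colon. The HSCR mice were homozygous for the Ednrb tm1Ywa allele, which disrupts the endothelin B receptor in every cell, on a hybrid C57BL6/J-129Sv background that the WT littermates shared. Mice of both sexes aged 2 to 4 weeks were used according to the methods, and no group received a treatment. The model leaves the distal colon without ganglia while the proximal colon keeps them. The question was how the receptors, carried by neural crest cells, and the ligands, made by the muscle layer, differed between genotypes and between segments. In such bulk tissue, fewer cells of a type and less RNA per cell cannot be told apart.

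The GDNF family ligands are secreted dimers that bind a co-receptor held in the membrane by a lipid anchor, and the pair then activates RET, which signals into the cell through RAS-MAPK and PI3K pathways. GDNF pairs mainly with GFRα1, neurturin (Nrtn) with GFRα2 and artemin (Artn) with GFRα3. In the embryonic gut, GDNF from the mesenchyme draws RET-bearing crest cells along the bowel and keeps them dividing, and loss-of-function variants of RET are the best known genetic cause of HSCR. After birth, Ret, Gfra1 and Gfra2 mark enteric neurons, and Gfra1 and Gfra2 are found in enteric glia as well.

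Gdnf, the ligand, and Gfra1, its co-receptor, had the largest fold changes of opposite sign over both segments, and their start regions are shown for that reason. Each line gives the 250 bases before the RefSeq transcription start on build GRCm38.p6, 5′ to 3′ on the gene's strand. Capitals mark the motifs found. On both strands, the search covered TATAAA (the TATA box), GGGCGG (the GC box), CCAAT (the CCAAT box), ACGTCA (from the cAMP response element) and CACGTG (the E-box), none of which overlaps another.
Gdnf, chr15:7809798-7810047, + strand: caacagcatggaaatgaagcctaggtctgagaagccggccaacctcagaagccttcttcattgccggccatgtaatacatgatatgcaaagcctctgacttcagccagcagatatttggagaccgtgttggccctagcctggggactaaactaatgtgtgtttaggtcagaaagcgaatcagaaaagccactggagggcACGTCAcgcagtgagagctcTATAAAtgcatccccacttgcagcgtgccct
Gfra1, chr19:58455399-58455648, minus strand: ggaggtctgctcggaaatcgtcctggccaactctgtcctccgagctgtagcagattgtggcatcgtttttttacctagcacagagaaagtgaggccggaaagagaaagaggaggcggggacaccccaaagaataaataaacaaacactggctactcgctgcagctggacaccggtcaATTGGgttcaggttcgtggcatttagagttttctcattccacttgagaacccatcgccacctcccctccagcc
The Gdnf window held TATAAA starting 31 bases before the start and ACGTCA 51 bases before it. Among all 32851 promoter windows of the same length, 12.4% held TATAAA and 6.47% ACGTCA. The Gfra1 window held CCAAT on the opposite strand (ATTGG as printed), 73 bases before the start, as did 33.8% of all windows on either strand, and none of the other 4 motifs. A second Gdnf start in the table also held CCAAT, at 120 bases. GGGCGG, present in 32.7% of windows, was found before Nrtn and Artn, and CACGTG (6.02%) before none of them. These matches are letters in a window and nothing in the RNA counts bears on their use. Of the 7 genes, 4 matched an entry of the table, and Ret, Gfra2 and Gfra3 did not.

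On build mm39, as the deposited table gives it, Ret (ENSMUSG00000030110) spans chr6:118128706-118174679 on the minus strand, Gfra1 (ENSMUSG00000025089) chr19:58224036-58444341 on the minus strand, Gfra2 (ENSMUSG00000022103) chr14:71127560-71217278 on the plus strand and Gfra3 (ENSMUSG00000024366) chr18:34822951-34853440 on the minus strand. Gdnf (ENSMUSG00000022144) spans chr15:7840327-7867056 on the plus strand, Nrtn (ENSMUSG00000039481) chr17:57058325-57064530 and Artn (ENSMUSG00000028539) chr4:117783359-117786960, both on the minus strand. Reads were counted per gene, and no overlapping gene in the table held reads.

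Between 21384372 and 45831881 reads per library were counted on genes. Levels are given as CPM, counts scaled to a common library size by TMM, and levels of different genes are compared only per kb of gene model. Libraries of 1 group differed widely. Mitochondrial genes, whose share can rise as RNA quality falls, took 49.8%, 17.8%, 7.31% and 34.6% of the counts in WT proximal, 5.56% to 20.1% in HSCR proximal, 4.32% to 23.7% in WT distal and 5.93% to 11.3% in HSCR distal libraries. The enteric neuron list, the mean log2 CPM of 14 neuronal genes, ranged from 5.20 to 7.73 in WT proximal, from 2.27 to 6.05 in HSCR proximal, from 1.97 to 6.94 in WT distal and from -0.49 to 6.24 in HSCR distal libraries. Ednrb, the disrupted gene, did not separate the genotypes. It had 33.9 to 67.7 CPM in WT proximal and 7.84, 12.6, 36.2 and 35.8 CPM in HSCR proximal replicates 1 to 4, of which the last 2 lay inside the WT range. In the library labelled HSCR distal replicate 1 its 97.0 CPM was the highest of all 16, while the other 3 HSCR distal libraries held 5.54, 5.82 and 9.56 CPM, below the 12.2 to 40.2 CPM of WT distal. A gene count does not show whether the Ednrb reads carried the disrupted exon. A list of Hox genes for position along the colon (Hoxa13 and Hoxd10 to Hoxd13, mean log2 CPM 1.89 to 3.51 in WT proximal and 4.37 to 4.82 in WT distal) stood at 4.61 in the library labelled HSCR proximal replicate 1 and at 2.94 and 3.57 in the libraries labelled HSCR distal replicates 1 and 4. Of these 5 genes Hoxd10 went the other way, with 23.8 ± 8.99 CPM in WT proximal and 11.98 ± 2.26 CPM in WT distal colon (SD, n = 4 each). Smooth muscle genes of HSCR proximal replicate 2 had a mean log2 CPM of 7.61, against 10.3 to 12.1 in the other 15 libraries, and its epithelial list was the highest of all. For Ret, Gfra1, Gfra2 and Gdnf, differences that turn on HSCR proximal replicate 1 or 2 or HSCR distal replicate 1 are given both ways.

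Ret had the largest range of the 7 genes. Its levels were 19.4, 53.6, 313 and 244 CPM in WT proximal replicates 1 to 4 and 12.3, 9.82, 160 and 132 CPM in HSCR proximal replicates. In the distal colon they were 4.00, 4.23, 166 and 138 CPM in WT and 83.1, 5.61, 3.21 and 4.10 CPM in HSCR. HSCR proximal replicates 1 and 2 lay below every WT proximal library and replicates 3 and 4 lay among them, so the groups overlapped. Distally, the library labelled replicate 1 of HSCR stood high and replicates 1 and 2 of WT stood as low as the other HSCR libraries. The mean was 157 ± 143 CPM in WT against 78.5 ± 78.7 CPM in HSCR proximal colon (SD, n = 4 each), and 78.1 ± 86.1 against 24.0 ± 39.4 CPM in distal colon.

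The log2 fold change of Ret, HSCR against WT, was -1.04 ± 1.08 (SE) proximally and -1.73 ± 1.47 distally, with adjusted p-values of 0.859 and 1.00 in edgeR's quasi-likelihood test. Neither passed, and the spread between libraries was as large as the difference. The labels give 1 batch for all 16 libraries, but replicates 1 and 2 carry another form of library name than replicates 3 and 4. The latter have 2 forms of their own, of which 1 is found in the proximal colon only, so that form and group cannot be told apart there. Within either pair of replicates the HSCR proximal libraries had less Ret than the WT ones, with differences of -1.55 for replicates 1 and 2 and -0.93 for replicates 3 and 4 in mean log2 CPM. The distal pairs went opposite ways, with a difference of 2.39 in the first and -5.38 in the second. Leaving out the library labelled HSCR distal replicate 1 gave a mean log2 CPM difference of -2.57 in place of -1.50, with overlap. Leaving out HSCR proximal replicate 2 changed the proximal difference from -1.24 to -0.57, and leaving out replicate 1 changed it to -0.67.

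Gfra1, the co-receptor for GDNF, had 64.8, 26.3, 141 and 73.6 CPM in WT proximal and 10.7, 5.77, 52.9 and 38.6 CPM in HSCR proximal libraries. Its WT distal levels were 10.9, 43.8, 113 and 108 CPM and its HSCR distal levels 33.8, 3.61, 1.64 and 8.43 CPM. All 4 HSCR libraries lay below the WT median in each segment, and the library labelled HSCR distal replicate 1 was the only distal one inside the WT range. The log2 fold change was -1.52 ± 0.74 in the proximal colon (unadjusted p = 0.0708, edgeR) and -2.56 ± 1.02 in the distal colon (unadjusted p = 0.0339, adjusted p = 1.00, edgeR). The proximal mean log2 CPM difference of -1.78 was -1.51 without HSCR proximal replicate 1 and -1.21 without replicate 2, with overlap. Without the library labelled HSCR distal replicate 1 the mean log2 CPM difference was -3.73 in place of -2.94. That the distal groups then did not overlap follows from leaving out the library inside the WT range. The share of all genes that separate on this removal was not counted.

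Of the 7 genes, only Gfra2, the co-receptor for neurturin, had HSCR and WT proximal libraries that did not overlap. WT proximal libraries held 54.9, 42.5, 106 and 72.6 CPM, and HSCR proximal libraries 33.9, 4.42, 32.6 and 25.8 CPM. Every HSCR value was below every WT value, and replicate 2, the library poor in smooth muscle, was far below its group. The mean log2 CPM differed by -1.79, at the smallest p that an exact two-sided permutation test of 4 against 4 can give, 0.0286. Without HSCR proximal replicate 2 the difference was -1.09, and without replicate 1 it was -2.07. Of 28 such tests over the 7 genes and 4 comparisons, it was the only one not overlapping. Non-overlap in the lower direction occurred for 2.83% of the 16664 genes tested in this comparison. It was lost with unscaled library sizes (difference -1.53, exact permutation p = 0.0857), and kept with mitochondrial counts left out of the library sizes (difference -1.82, exact permutation p = 0.0286). In edgeR the log2 fold change was -1.54 ± 0.58 (unadjusted p = 0.0272, adjusted p = 0.747). Distal levels of Gfra2 were 11.3, 36.2, 75.2 and 42.2 CPM for WT and 72.8, 23.2, 5.74 and 16.4 CPM for HSCR libraries, which overlapped, and the log2 fold change was -0.50 ± 0.78. It was -1.48 without the library labelled HSCR distal replicate 1 and -0.01 without WT distal replicate 3.

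Gfra3, the artemin co-receptor known from sensory and sympathetic neurons, was near the bottom of the family, with 0.863 to 6.25 CPM over the 16 libraries and 41 to 226 counted reads. Its log2 fold change was -0.82 ± 0.72 proximally and -0.54 ± 0.55 distally, and the groups overlapped in both segments.

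**Figure D1:**
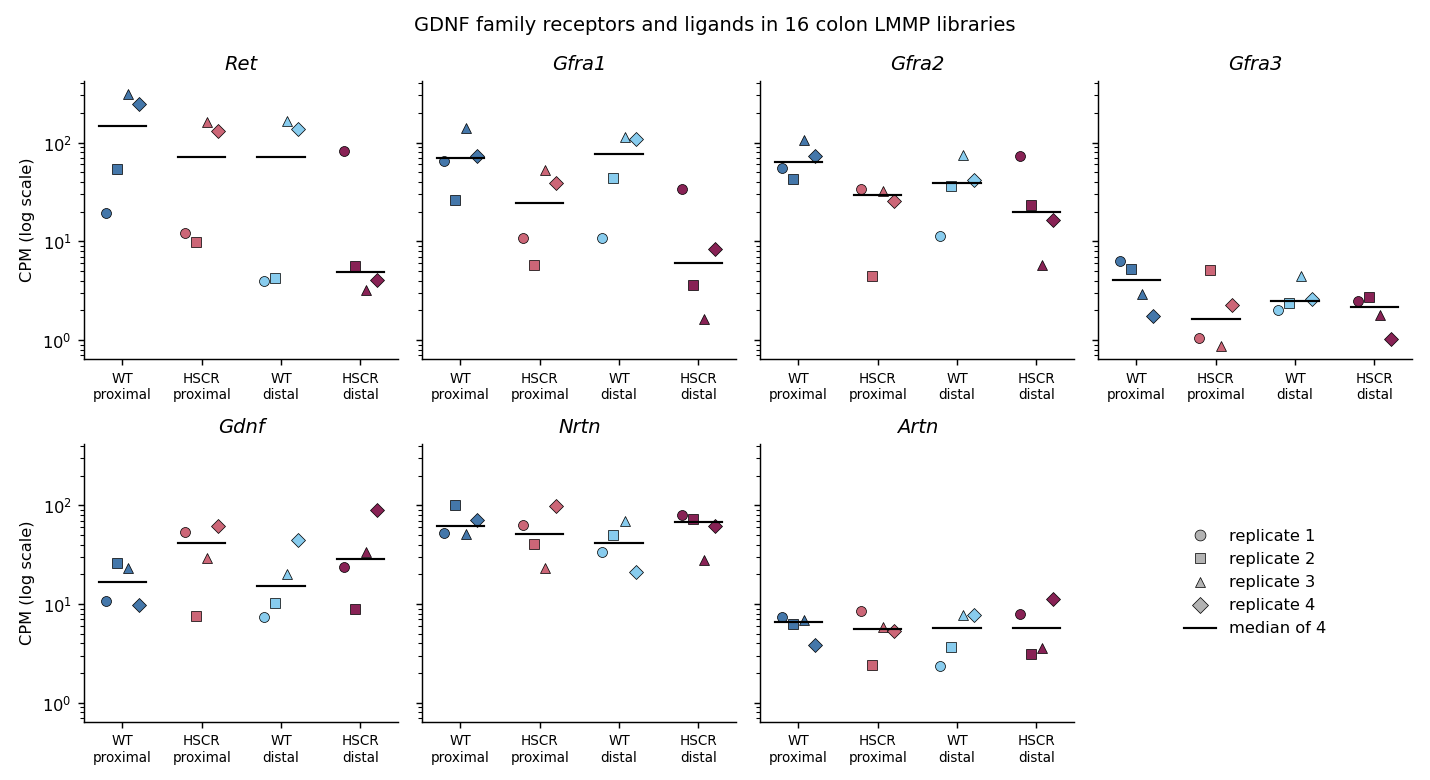
CPM on a log axis of the 4 receptor and 3 ligand genes in each of the 16 libraries, with 1 symbol per replicate and a line at the median of 4. Ret spans 3.21 to 313 CPM with high and low libraries in every group, while Nrtn varies over 4.81-fold and Artn over 4.77-fold.

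Gdnf, the ligand of RET and GFRα1, had point estimates on the other side of 0. Its levels were 10.6, 26.0, 23.0 and 9.67 CPM in WT proximal and 53.8, 7.63, 29.3 and 61.2 CPM in HSCR proximal libraries. HSCR replicates 1, 3 and 4 lay above every WT library, and replicate 2 below all of them. The distal levels were 7.41, 10.3, 20.3 and 44.4 CPM in WT and 23.7, 8.89, 33.9 and 88.6 CPM in HSCR, where 1 library lay above the WT range. The log2 fold change was 1.11 ± 0.62 in the proximal colon (adjusted p = 0.762, edgeR) and 0.87 ± 0.75 in the distal colon (adjusted p = 1.00). Without HSCR proximal replicate 2 the proximal mean log2 CPM difference was 1.54 in place of 0.90. That the groups then did not overlap follows from this removal, which was chosen after seeing the data. The share of all genes that separate on it was not counted. Without HSCR proximal replicate 1 the difference was 0.60, with overlap. The distal log2 fold change was 0.06 without HSCR distal replicate 4 and 1.57 without WT distal replicate 4.

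Nrtn, the ligand of GFRα2, varied least together with Artn. Its levels were 51.9, 101, 50.6 and 71.5 CPM in WT proximal, 62.9, 40.5, 23.2 and 97.7 CPM in HSCR proximal, 33.9, 49.6, 69.2 and 20.997 CPM in WT distal and 79.3, 72.5, 27.8 and 62.0 CPM in HSCR distal libraries. All groups overlapped. The log2 fold change was -0.31 ± 0.45 proximally and 0.46 ± 0.45 distally. Artn, the ligand of GFRα3, lay between 2.34 and 11.1 CPM, with log2 fold changes of -0.16 ± 0.48 and 0.23 ± 0.60. Limma-voom turned the distal sign of Nrtn and both signs of Artn, and leaving out 1 library turned those of Artn too.

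None of the 7 genes was called, a call being a log2 fold change beyond 1 with an adjusted p under 0.05 in edgeR's quasi-likelihood test. That test called 0% of the 16664 genes in the proximal and 0% of the 17059 genes in the distal genotype comparison. At an unadjusted p under 0.05 in the lower direction it held 4.13% of genes in the proximal comparison, with Gfra2 the 1 of 7, and 1.76% in the distal comparison, with Gfra1 the 1 of 7. Non-overlap in the lower direction, which none of the 7 genes showed in the distal colon, occurred for 1.04% of genes there. The median log2 fold change of the 7 genes was -0.82 proximally and -0.50 distally, where the median of all genes tested was 0.04 in both.

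An edgeR likelihood ratio test with 4 RUVr factors, which take up unwanted variation from the residuals and are named in the methods of the study, gave other calls. In each fit of 8 libraries the factors were estimated from those same libraries. The test does not count that step, so its p-values can be too small. This likelihood ratio test called Ret, Gfra1 and Gfra2 in the proximal colon (log2 fold changes of -1.12, -1.79 and -1.77, adjusted p = 0.0234, 7.46e-06 and 6.21e-11, edgeR). Over the whole table it called 2702 of the 16664 genes tested there. In the distal colon it called Ret and Gfra1 (-1.62 and -2.93, adjusted p = 0.0138 and 4.67e-15, edgeR), among 1134 of 17059 genes. By that test Gdnf had adjusted p-values of 0.0228 proximally and 0.0225 distally, with log2 fold changes of 0.96 and 0.76 that did not reach the limit of 1 used here. The methods of the study name a lower fold limit for this test, and both values of Gdnf exceed it. These 4 genes kept their direction between the tests, and DESeq2 and limma-voom called none of the 7 in either segment.

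Over both segments in 1 model of 16 libraries, all 4 receptor genes had log2 fold changes below 0 and all 3 ligand genes above 0, the signs of Nrtn and Artn turning under other settings. Gfra1 had -2.02 ± 0.67 (unadjusted p = 0.00822, adjusted p = 0.322, edgeR) and Gfra2 -0.998 ± 0.511 (adjusted p = 0.488). Ret had -1.35 ± 0.97, which a term for the form of the library name, replicates 1 and 2 against 3 and 4, reduced to -0.22, and Gfra3 had -0.65 ± 0.45. Gdnf had 1.02 ± 0.52 (unadjusted p = 0.0660, adjusted p = 0.483, edgeR), Nrtn 0.09 ± 0.32 and Artn 0.06 ± 0.38. No gene of the table was called (0% of 18619), and 5.42% had an unadjusted p under 0.05 in the lower direction, with Gfra1 the 1 of 7. DESeq2 called Gfra1 here (-2.04, adjusted p = 0.0471), and limma-voom with quality weights called Gfra1 and Gfra2 (-2.88 and -1.70, adjusted p = 0.0312 and 0.0382). Of the 18619 genes, DESeq2 called 334 and limma-voom 450. Where a mouse gave both segments, these libraries are not independent.

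**Figure D2:**
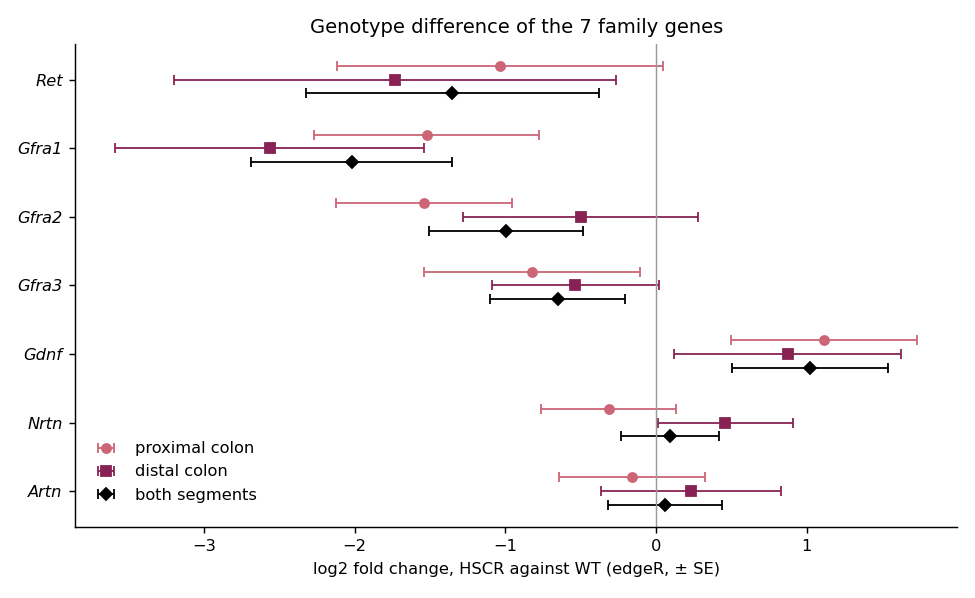
Log2 fold change, HSCR against WT, of the 7 genes in the proximal colon, the distal colon and both segments, with bars of 1 SE from edgeR's quasi-likelihood fit. The 4 receptors lie left of 0 in all 3 fits, Gdnf lies right of 0, and Nrtn and Artn cross it between segments.

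Whether the genotype difference itself differed between segments was tested by the interaction. It was -0.70 ± 1.91 for Ret, -1.04 ± 1.29 for Gfra1, 1.03 ± 1.01 for Gfra2 and -0.22 ± 1.02 for Gdnf, and it called 0% of 18619 genes (all 7 with an adjusted p of 1.00, edgeR). The sign for Ret turned with a term for the replicate number or that of the library name. A difference between segments was not detectable in this spread.

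Along the normal colon, distal against proximal WT libraries, Ret had a log2 fold change of -0.997 ± 1.23, Gfra1 -0.13 ± 0.69, Gfra2 -0.72 ± 0.51 and Nrtn -0.63 ± 0.39, with adjusted p-values of at least 0.917 in edgeR, where 0.0181% of 16566 genes were called. With RUVr factors Ret was called here (-1.70, adjusted p = 7.91e-13, edgeR), among 1836 of the 16566 genes. In HSCR colon, Ret had -1.73 ± 1.32 and Gfra1 -1.20 ± 1.01, with Gdnf at -0.01 ± 0.77, and 0% of 17086 genes were called. The 4 comparisons share libraries in pairs.

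Per kb of gene model, Nrtn led the family in every group, with a mean of 67.2 ± 23.0 CPM per kb in WT proximal, 54.8 ± 31.4 in HSCR proximal, 42.4 ± 20.3 in WT distal and 59.0 ± 22.4 in HSCR distal colon. Its gene model is short (1023 bases, against 3674 for Gdnf and 6763 for Ret), which enters this scale. Nrtn made up 57.2% to 95.0% of the transcripts of the 3 ligands per library, with a median of 88.7%, and Gdnf 3.24% to 33.7%, with a median of 7.32%. In WT proximal colon the order after Nrtn was Ret (23.3 ± 21.2 CPM per kb), Gfra2 (19.5 ± 7.79), Gfra1 (13.9 ± 8.69), Gdnf (4.71 ± 2.28), Artn (2.53 ± 0.65) and Gfra3 (2.02 ± 1.03), and no neighbours in it were apart by more than their SDs. In HSCR distal colon Gdnf (10.6 ± 9.46) came next after Nrtn among the 7, ahead of Gfra2 (8.34 ± 8.41), Ret (3.55 ± 5.83), Artn (2.68 ± 1.58), Gfra1 (2.17 ± 2.72) and Gfra3 (1.01 ± 0.38), and of the neighbours only Nrtn and Gdnf were apart by more than their SDs.

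The ligand and its receptor were set against each other within each library, as a description without a test. The ratio of Gdnf to Gfra1 per kb was 0.244, 1.47, 0.243 and 0.196 in WT proximal and 7.46, 1.97, 0.826 and 2.36 in HSCR proximal libraries. It was 1.01, 0.352, 0.267 and 0.612 in WT distal and 1.05, 3.67, 30.8 and 15.7 in HSCR distal libraries. The distal groups did not overlap, although the library labelled HSCR replicate 1 and WT replicate 1 nearly met, and in the proximal colon 1 HSCR library lay within the WT range. The share of all gene pairs whose ratios separate the distal groups was not counted, so the separation is not read as particular to these genes. Gdnf to Ret ranged further, from 0.073 to 1.01 in WT proximal, 0.337 to 8.07 in HSCR proximal, 0.225 to 4.50 in WT distal and 0.526 to 39.8 in HSCR distal libraries, and its groups overlapped. The ratio of Gfra1 to Gfra2 was 0.399 to 0.858 in WT proximal and 0.622 to 1.66 in WT distal libraries, which overlapped. In HSCR distal libraries it was 0.101 to 0.333, below the WT distal range. The share of all gene pairs that separate so was again not counted, and this separation is not read as particular to these genes. The ratio was 0.205 in HSCR proximal replicate 1, the library whose Hox list was high, against 0.844 to 1.05 in the other 3 of its group. In the libraries labelled HSCR distal replicates 1 and 4, whose Hox lists lay below the WT distal range, it was 0.2998 and 0.333. Whether this ratio marks the segment was not tested.

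**Figure D3:**
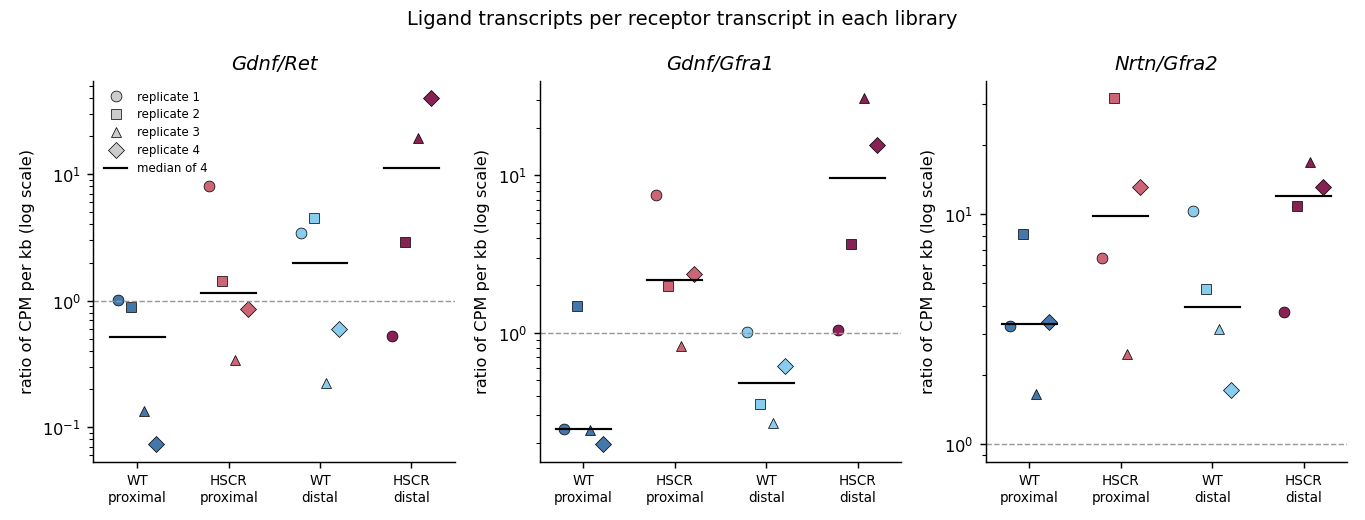
Ratio of ligand to receptor in CPM per kb, on a log axis, for Gdnf to Ret, Gdnf to Gfra1 and Nrtn to Gfra2 in each library, with lines at group medians and a dashed line at 1. For Gdnf to Gfra1 the 4 HSCR distal libraries reach from 1.05 to 30.8 and the WT distal ones from 0.267 to 1.01, so that the groups nearly meet.

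Ret, Gfra1 and Gfra2 rose with the neuronal content of the libraries, and Gfra3 did so little (r = 0.33). Over 16 libraries that share groups and cell content, log2 CPM of Ret correlated with the enteric neuron list with a Pearson r of 0.91 and a Spearman rho of 0.93, and with r of 0.94 within the 8 WT and 0.96 within the 8 HSCR libraries. Leaving out the 2 libraries farthest from the median of the list gave r = 0.91. For Gfra1 r was 0.87 with neurons and 0.84 with the glial list, and for Gfra2 0.79 and 0.77. Within WT and within HSCR libraries r with neurons was 0.83 and 0.82 for Gfra1, and 0.93 and 0.61 for Gfra2. With the epithelial list r was -0.53 for Ret, -0.59 for Gfra1 and -0.69 for Gfra2. Gfra3 reached 0.45 at most, with glia. Gdnf had its highest r with the endothelial list (0.79) and the list of interstitial cells of Cajal (0.78), the pacemaker cells of gut muscle, above its 0.59 with smooth muscle, and Artn had 0.87 with interstitial cells of Cajal. Nrtn followed no list beyond 0.46. Of the lists for Schwann cells and nerve fibres, fibroblasts, macrophages, mesothelium and adipocytes, the highest r with any of the 7 genes was 0.77, between Artn and mesothelium. The summed CPM of the 14 neuronal genes was 757 to 3792 in WT and 91.8 to 1198 in HSCR proximal libraries, and 153 to 2180 in WT and 29.6 to 1298 in HSCR distal libraries, with at most 1 of the 14 at 0 in any library. Epithelial genes, which the dissection should leave out, summed to 40.8 to 1876 CPM in WT proximal and 193 to 15459 CPM in HSCR proximal libraries, and the part of either cell type in the values of Ret, Gfra1, Gfra2 and Gdnf was not tested.

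**Figure D4:**
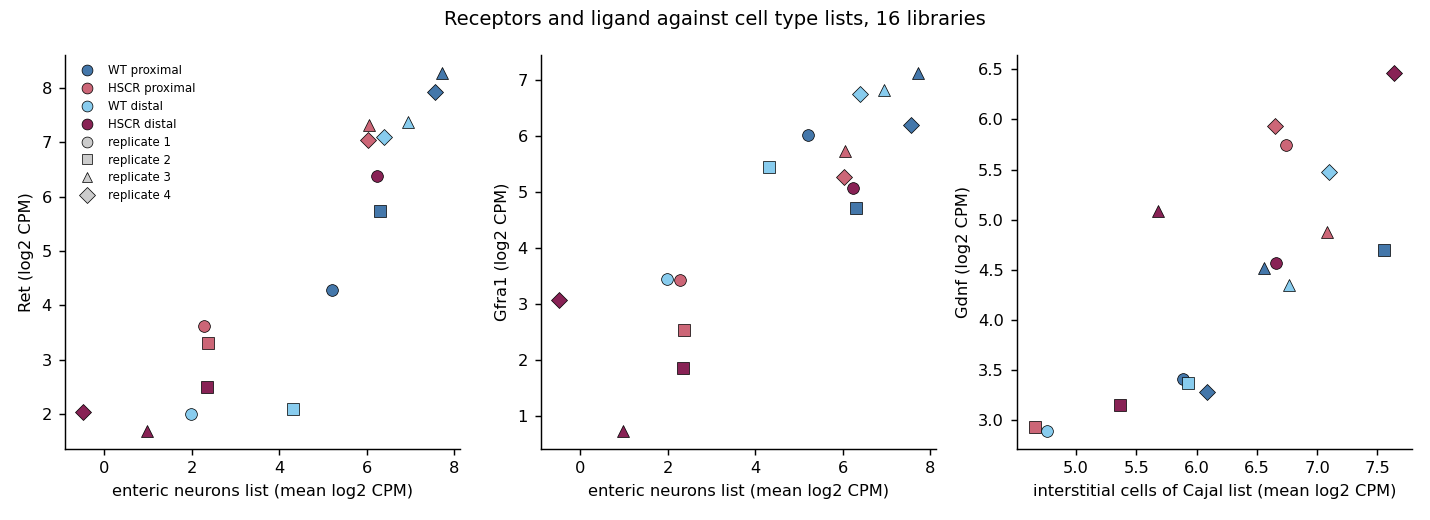
Log2 CPM of Ret and Gfra1 against the enteric neuron list and of Gdnf against the list of interstitial cells of Cajal, 1 point per library, coloured by group and shaped by replicate. Ret climbs with the neuron list in both genotypes (r = 0.91), and the WT distal libraries with little Ret, replicates 1 and 2, had list values of 1.97 and 4.32.

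Set against the neuron list in the same library, Ret stood higher in HSCR proximal colon. Its log2 CPM minus the list mean was -0.92, -0.57, 0.56 and 0.37 in WT proximal and 1.34, 0.93, 1.27 and 1.00 in HSCR proximal libraries. Every HSCR library was above every WT library, by 1.28 on average (exact two-sided permutation p = 0.0286, the smallest it can give). The list itself had a mean log2 CPM 2.52 below WT in HSCR proximal libraries (exact permutation p = 0.114). The level of Ret itself differed by -1.24, with overlap (exact permutation p = 0.429), so the lower list enters the value of Ret here. Of the 16664 genes, 7.3% were not overlapping and higher on this scale. Gdnf was the other such gene, 3.42 higher with the same p, out of 28 tests on this scale. The level of Gdnf itself differed by 0.90, with overlap (exact permutation p = 0.314), and had r = -0.09 with the neuron list. The lower list therefore enters its value here, which is not a separate result about Gdnf. Distal HSCR libraries differed in Ret by 1.14 on this scale, with overlap (exact permutation p = 0.314). The glial list of 9 genes differed by -1.69 in mean log2 CPM, HSCR against WT proximal, without overlap (exact permutation p = 0.0286). Every list was tested in every two-group comparison, without adjustment for their number. The lists for Schwann cells and nerve fibres, fibroblasts and Hox genes reached the same p between WT segments. Against the glial list, Ret, Gfra1 and Gfra2 differed by 0.45, -0.09 and -0.10, with overlap. Against the smooth muscle list Gdnf differed by 1.53 in the proximal colon (exact permutation p = 0.0857), with overlap. No test out of 32 against these other lists was without overlap.

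The 10 genes whose log2 CPM over 16 libraries was most like that of Ret were Aplp1, Ache, Ptprn, Lrp11, Nsg1, Pnma3, Gpr61, Celsr3, Scn2b and Scn11a, with Pearson r from 0.98 to 0.95. Ache encodes acetylcholinesterase, and Scn2b and Scn11a encode sodium channel subunits. Gfra1 was most like Mapk10, Sgip1, Gdap1l1, Gpr37l1 and Chl1 (r = 0.95 for each), and Gfra2 most like Cadm4, Nudt11, Pfn2, Chn1 and Akap12 (0.94 to 0.93). Gdnf was most like Foxf1, a transcription factor of gut mesenchyme, with r = 0.94, then Wbp1l, Pcnx, Itgb5 and Slc20a2. Artn was most like Gpc3 (0.90), Gpr20, Ltbp4, Kit and Pde3a, of which Kit is the defining receptor of interstitial cells of Cajal. Nrtn (Ccdc85b, Gm44799, Pola2, 2810433D01Rik and Map1lc3a, 0.86 to 0.77) and Gfra3 (Chordc1, Aspa, 4930466K18Rik, Gm13056 and Ddx31, 0.75 to 0.72) had no close match. Among the members, Gfra1 correlated with Gfra2 at 0.83 and with Ret at 0.81, Ret with Gfra2 at 0.71 and Gdnf with Artn at 0.73, while Gdnf had 0.18 with Ret and 0.03 with Gfra1.

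Of the rest of the family, Gfra4, the persephin co-receptor, had 1.57 to 74.6 CPM and log2 fold changes of -0.45 ± 0.84 proximally and -0.84 ± 0.36 distally (unadjusted p = 0.0446, adjusted p = 1.00, edgeR). Its distal levels were 45.9, 61.9, 60.3 and 74.6 CPM in WT and 24.2, 43.3, 52.1 and 18.3 CPM in HSCR, with overlap. Pspn, the ligand persephin, had 0 to 14 counts per library and did not pass the filter. Gfral, the receptor of the stress hormone GDF15, had 0 counts in all 16 libraries, which allows up to 0.226 CPM in the shallowest.

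Of the 5 co-receptors and modulators (Ncam1, Sdc3, Gas1, Lrig1 and Sorl1), none was called in either segment. Ncam1, an adhesion molecule that binds GDNF without RET and is also carried by glia, had a log2 fold change of -1.25 ± 0.51 in the proximal colon (unadjusted p = 0.0375, edgeR) and -0.94 ± 0.98 in the distal colon, and the smallest p after it were those of Sorl1 (-0.69 ± 0.45) and Lrig1 (0.86 ± 0.62) in the proximal and Gas1 (0.34 ± 0.40) and Sdc3 (0.15 ± 0.70) in the distal colon. Of 20 adaptors and effectors of RET, 0 were called and 2 had an unadjusted p under 0.05 in the proximal colon, Dok5 (-1.86 ± 0.66) and Frs3 (-1.12 ± 0.46), both docking proteins, followed by Dok4 (1.80 ± 0.87). Frs3 had 5.18 to 12.2 CPM in WT and 2.56 to 4.87 CPM in HSCR proximal libraries, without overlap, as had 2.83% of genes in the lower direction. Distally the smallest p were those of Cbl (-0.36 ± 0.23), Ptpn11 (-0.43 ± 0.29) and Shc1 (-0.33 ± 0.25). Over the 20, 8 values lay above 0 proximally and 11 distally, with medians of -0.04 and 0.02.

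Feedback and target genes of the pathway (Spry1, Spry2, Spry4, Etv1, Etv4, Etv5 and Dusp6) were called in 0 of 7 cases, with medians of -0.03 and -0.42. Spry2, a feedback inhibitor, had 0.44 ± 0.22 in the proximal colon, Etv5 -0.52 ± 0.30 and Etv1, which interstitial cells of Cajal also use, -0.65 ± 0.54. Spry2 had 21.9 to 32.1 CPM in WT and 32.6 to 41.3 CPM in HSCR proximal libraries, without overlap, as had 2.03% of genes in the higher direction. The distal values were led by Dusp6, an ERK phosphatase, at -0.75 ± 0.37, with Etv1 at -0.71 ± 0.56 and Spry2 at -0.28 ± 0.33. None of these 7 had an unadjusted p under 0.05 in either segment.

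Regulators of Ret transcription had the lowest median of the lists around the family, and 4 of the 5 examined could be tested (not Pax3). Sox10, the crest and glial factor, had 71.9 to 153 CPM in WT and 10.8 to 49.3 CPM in HSCR proximal libraries, which did not overlap. Non-overlap in the lower direction occurred for 2.83% of the 16664 genes tested there. The log2 fold change of Sox10 was -1.83 ± 0.49 (unadjusted p = 0.00451, adjusted p = 0.651, edgeR). Phox2a, a transcription factor of autonomic neurons, had -2.57 ± 1.13 (unadjusted p = 0.0483, edgeR), with overlap, and Rarb, a retinoic acid receptor, had -0.55 ± 0.91. Distal log2 fold changes were -1.67 ± 0.90 for Sox10, -1.09 ± 0.56 for Rarb and 0.67 ± 0.51 for Gata2, a zinc finger factor, all with overlap. The median of the 4 was -1.19 proximally and -1.38 distally, and 0 were called. Sox10 and Ncam1 are also on the glial list and Etv1 on that of interstitial cells of Cajal, and the part of cell content in these values was not tested.

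**Figure D5:**
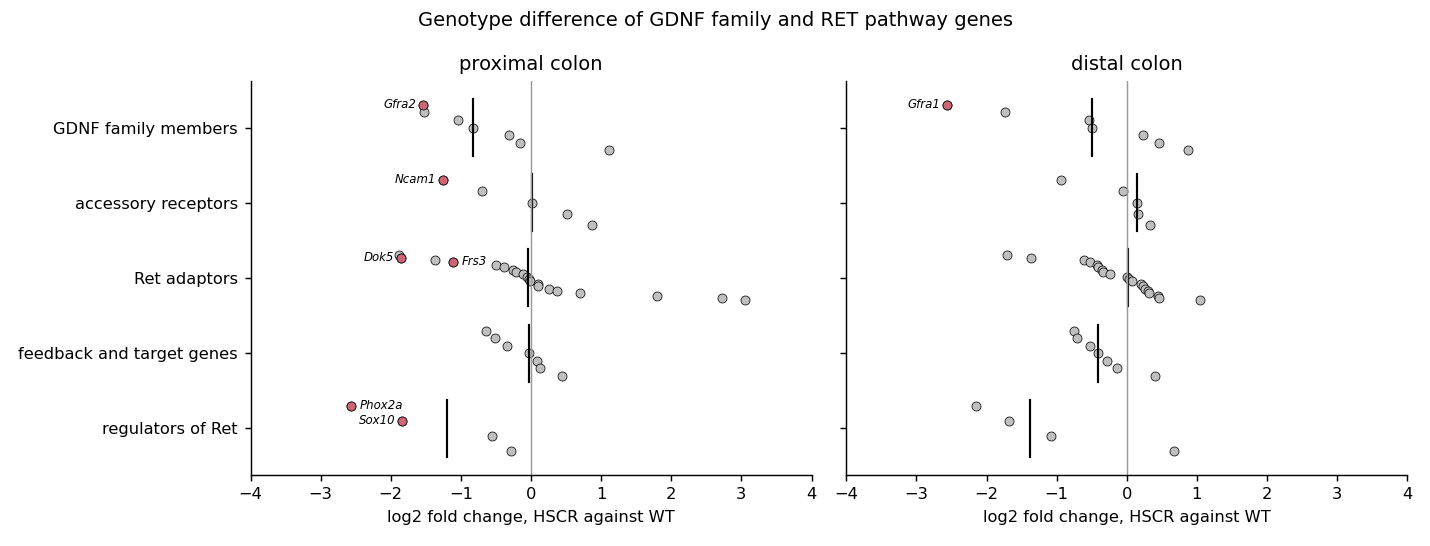
Log2 fold change, HSCR against WT, of each gene of the family and of 4 lists around RET, in the proximal and distal colon, with a bar at each list's median and filled red points for an unadjusted p under 0.05. Of the 4 lists, the regulators of Ret have the lowest medians, -1.19 and -1.38, while those of the adaptors lie at -0.04 and 0.02.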

How the data were processed

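RNA had been isolated from microdissected LMMP, and polyadenylated RNA was sequenced in 16 libraries. The authors mapped reads with HISAT2 (version 2.2.1 in the submitters' processing notes) to mm39 and deposited whole-number counts per GENCODE gene from featureCounts (2.0.6), with no normalization. The labels name both a stranded and a non-stranded library protocol, so the strand setting is not settled. Tissue labels of the distal libraries name the proximal colon, and titles were followed for the segment. The labels do not say which libraries came from the same mouse. Library names of replicates 1 and 2 carry the same pair of numbers in all 4 groups, and what these numbers mark is not stated. So p-values measure the spread between these libraries, which may in part be technical. A second table holding the authors' fold changes and p-values was not used.

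Counts were filtered by filterByExpr (minimum count 10), scaled by TMM and fitted with edgeR's quasi-likelihood test (edgeR 4.0.16 in R 4.3.3), each two-group comparison on its own 8 libraries, and the interaction and the genotype difference over both segments on all 16. Benjamini-Hochberg adjustment ran over all genes tested. Genes were called at an adjusted p below 0.05 where the log2 fold change also exceeded 1 in size. CPM were computed with TMM factors over 16 libraries, and log2 CPM with a prior count of 0.5. Single values were compared by exact two-sided permutation tests of 4 against 4 libraries (scipy 1.17.1), whose smallest p is 0.0286. A zero count was given a floor of 3 counts, 0.0551 to 0.226 CPM by library, which covers counting error only. The script was tested on simulated counts. Alternatives were DESeq2 1.42.0, limma-voom (limma 3.58.1), a likelihood ratio test with 4 RUVr factors, other scalings and filters, a replicate block, a term for the form of the library name, and leaving out each library. 3 alternatives were chosen after seeing the data: levels relative to the smooth muscle and interstitial cell lists, values without HSCR proximal replicate 2, and distal values without the library labelled HSCR distal replicate 1 and WT distal replicates 1 and 2, which are not reported because the last 2 had been chosen for few neuronal transcripts.

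The 7 genes and all lists were chosen with earlier results of these data known. Named beside them were the rest of the family, the 3 genes of each pathway list with the smallest p in the proximal and in the distal genotype comparison, and by likeness of log2 CPM the 10 genes closest to Ret and the 5 closest to each other gene. 1 gene of the list of Ret regulators is not reported here.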

Additional observations from a re-analysis of the deposited data

Results flagged for a closer look

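Of 44 groups of 4 libraries examined for a value far from the others, 28 of them groups of the 7 genes, 1 was singled out, where chance would single out about 1 in 20. Gfra2 in HSCR proximal replicate 2 had a log2 CPM of 2.15, the next value in its group being 4.69, and the gap took up 0.866 of the range of the group. The same library had the lowest smooth muscle list of all 16, with a mean log2 CPM of 7.61. Without it, the difference in mean log2 CPM of Gfra2 between HSCR and WT proximal libraries was -1.09, in place of -1.79.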

How the results depend on the processing

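Of 589 alternative log2 fold changes of the 7 genes, 557 kept their direction and their side of the threshold, 21 reversed and 11 passed the threshold. The number of the 7 genes called was 0 under edgeR's quasi-likelihood test in every comparison. With RUVr factors it was 3 in the proximal comparison (Ret, Gfra1 and Gfra2), 2 in the distal one (Ret and Gfra1), 1 between WT segments (Ret) and 2 over both segments (Gfra1 and Gfra2). Over both segments DESeq2 called 1 (Gfra1) and limma-voom 2 (Gfra1 and Gfra2). The cause was not tested. Over all genes, DESeq2 called 181 in the proximal and 22 in the distal comparison, 47 between WT and 5 between HSCR segments, 6 for the interaction and 334 over both segments. RUVr called 2702, 1134, 1836, 337, 289 and 1813 in the same order. Limma-voom called 4 genes in the proximal comparison and 450 over both segments, the library name term 4 in the proximal comparison, and over both segments leaving out the library labelled HSCR distal replicate 1 gave 8 calls, WT distal replicate 1 4, and both libraries of doubtful segment 1. The 3 genes called between WT segments became 0 when all 16 libraries were fitted or any of 6 of the 8 libraries was left out.

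Reversals were mainly of Artn and Nrtn, whose log2 fold changes were near 0. Under limma-voom, Artn was 0.17 in the proximal and -0.31 in the distal comparison and -0.063 over both segments, Nrtn -0.035 in the distal comparison and -0.24 over both segments, and the interaction of Gfra2 -0.51. Over both segments Artn was -0.0044 with RUVr and -0.12 without both libraries whose segment is in doubt. The interaction of Ret was 2.10 with the library name term. In the proximal comparison the mean log2 CPM difference of Artn was 0.021 with unscaled library sizes, 0.40 against the smooth muscle list and 0.0036 against that of interstitial cells of Cajal, and Nrtn was 0.20 against smooth muscle. Leaving out each library in turn, Artn lay between -0.44 and 0.10 in the proximal comparison, -0.17 and 0.47 in the distal comparison and -0.14 and 0.19 over both segments, and Nrtn between -0.11 and 0.25 over both segments. The log2 fold change of Ret lay between -1.61 and -0.45 over proximal and between -4.23 and -1.04 over distal fits of this kind.

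Replicate numbers did not pair the libraries throughout. Correlations of same-numbered deviations were -0.12 to 0.24 in the proximal and -0.21 to 0.41 in the distal comparison. They were 0.10 to 0.44 in the WT and 0.00064 to 0.36 in the HSCR comparison. In none did every library correlate best with its own number. Replicates 1 (0.44) and 2 (0.10) between WT segments did, and replicates 2 (0.29) and 4 (0.36) between HSCR segments. Replicate 4 did in the proximal comparison, and replicates 2 and 4 in the distal one. Whether some of the libraries are paired cannot be told from these values. With the replicate block, the interaction of Ret was 1.37, Artn over both segments -0.047, the genes called between WT segments were 1, and 0 of the 7 genes were called in any comparison. With 4 libraries a group and biological coefficients of variation of 0.7 to 0.794, the SE of Ret was 0.97 or more on the log2 scale, which limits what these data can show for it. Gfra3 and Artn also rest on few reads, as few as 41 and 66 in a library.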
